A study of Arabidopsis thaliana with 25 samples.

Results

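SSRP1 is a subunit of the histone chaperone FACT, and the 5451 summits described here are the places at which SSRP1 chromatin immunoprecipitation (ChIP) signal was called over that of elongating RNA polymerase II (RNAPII) in Arabidopsis thaliana. They are all the summits of 1 of the 8 deposited lists, 18.0% of 30216 summits. The comparison asks where along genes, and in which genes, this histone chaperone exceeds the polymerase. Seedlings of the ecotype Col-0 were grown on 0.5x MS medium with 16 h of light at 21 °C and 8 h of darkness at 18 °C. SSRP1 was precipitated in 4 libraries, and RNAPII phosphorylated at serine 2 of its carboxy-terminal domain (S2P) in 2. The other lists set SSRP1, SPT16 (the second FACT subunit), ELF7 (of the PAF1 complex) or SPT5 over S2P or over the serine 5 form (S5P). Each of these factors also had 4 libraries, S5P had 2, and 5 input libraries brought the samples to 25. A protocol text on 10 min at 44 °C stands under all samples, none of which is labelled as heated, so whether these seedlings were heated is not stated.

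FACT is built of SSRP1 and SPT16 and loosens, holds and restores nucleosomes when a polymerase passes. S2P is the form of RNAPII typical of productive elongation, whereas S5P is typical of early transcription. A summit of SSRP1 over S2P marks a base at which SSRP1 exceeded S2P. It is not a measure of SSRP1 occupancy by itself, and a gene with much SSRP1 and much S2P need not have one.

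The reading of SSRP1 as treatment and S2P as control rests on the list's name, and how the 4 and 2 libraries were pooled is not stated. The list has a position and a score per summit and no column per library. No value below therefore has a replicate error, no test over samples was possible, and sequencing depth is unknown. Intervals are 95% Clopper-Pearson intervals (exact), for counting error alone. The score is the authors' −log10 value from MACS3, of a q-value or, if that was the threshold used, of a p-value. Its lowest value in the list was 2.0, equal to a threshold of 0.01. Genes were taken from a RefSeq table of TAIR10.1, which gives gene ends but neither strand nor exons, so distances are to the nearer end of a gene and not to its start. Shifting all summits by 500 bp to either side lowered the share inside protein-coding genes to 75.0% and 75.5%, against 96.1% at the deposited positions.

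Scores ran from 2.0 to 63.8, with a median of 6.67 and quartiles of 4.38 and 10.99. Of the summits, 1820 scored under 5, 2028 scored 5 to 10, 1276 scored 10 to 20, and 327 (6.00%) scored 20 or more. The 5 chromosomes were alike in this list: between 17.0% and 17.7% of their protein-coding genes held a summit, and the median score was between 6.40 and 6.94.

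SSRP1 exceeded S2P almost only inside genes. Of the summits, 5237 (96.1%, 95.5 to 96.6) lay inside a protein-coding gene, whereas such genes cover 54.1% of the bases between the first and the last gene of the chromosomes. Exactly 1 gene held 5142 of them, and 95 lay in overlapping genes. Gene ends themselves were nearly free of summits. Within 100 bp of a gene end, inside or outside, lay 1.65% of summits, and within 200 bp 4.44%. Within 300 bp lay 16.2%, below the 23.0% of bases that are so near to an end. Within 500 bp lay 50.9%, above the 35.3% of bases, and within 1000 bp 88.7%, above 58.1% of bases.

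Inside genes the summits formed a band that began about 200 bp from a gene end. The median distance of the 5142 summits in a single gene to the nearer end was 501 bp, with quartiles of 359 and 727 bp. The percentiles at 10% and 90% were 273 and 1026 bp. In the genes that hold these summits there were 3.59 summits per 100 kb at 0 to 100 bp from an end and 11.2 at 100 to 200 bp. The density was 64.6 per 100 kb at 200 to 300 bp and highest, at 106, at 300 to 400 bp. Beyond, it was 97.8 at 400 to 500 bp, 80.2 at 500 to 600 bp and 32.7 at 900 to 1000 bp, and it ended at 9.46 per 100 kb beyond 2000 bp.

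**Figure D1:**
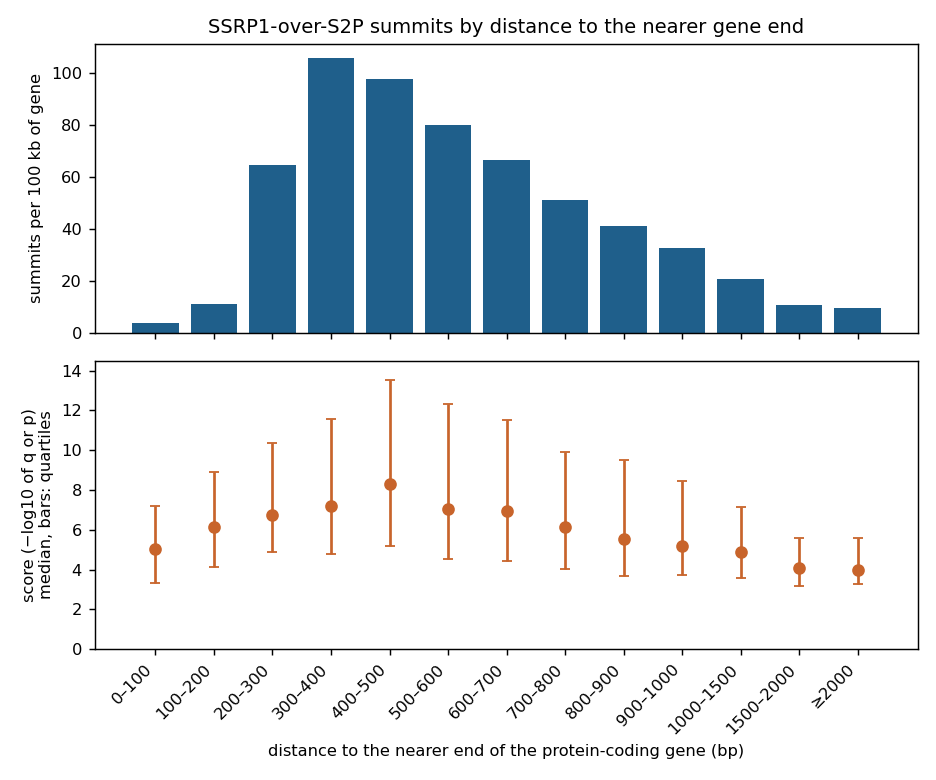
Density of SSRP1-over-S2P summits (upper panel, summits per 100 kb of the genes that hold them) and their score (lower panel, median with quartiles) by distance to the nearer gene end, for the 5142 summits in exactly 1 protein-coding gene. Density peaks at 106 per 100 kb at 300 to 400 bp, and the median score peaks at 8.31 at 400 to 500 bp.

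Scores followed the same band, with a small offset inwards. The median score was 5.05 at 0 to 100 bp, 7.21 at 300 to 400 bp, 8.31 at 400 to 500 bp, 6.15 at 700 to 800 bp and 3.96 beyond 2000 bp. At 400 to 500 bp, 41.1% of summits scored at least 10, against 6.06% at 0 to 100 bp and 5.97% beyond 2000 bp. Over all distances the rank correlation of distance and score was weak (Spearman's rho = −0.16 over 5142 summits), with low scores at both ends of the range, and it was −0.05 over the strongest summit of each of 4771 genes.

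Seen from the side of the score, strong summits spanned a narrower range of distances than weak ones. Of summits with a score of at least 20 that lay in 1 gene, 43.4% lay over 300 to 500 bp from the nearer end, 3.24% lay beyond 1000 bp, and none of 309 lay within 200 bp. Of summits scoring under 5, 27.6% lay over 300 to 500 bp from an end, 18.2% beyond 1000 bp and 3.22% within 200 bp. The quartiles of distance were 398 and 612 bp at scores of at least 20, and 378 and 871 bp at scores under 5. The genes around strong summits were somewhat shorter, with a median of 2142 bp at scores of at least 20 against 2510 bp at scores under 5.

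**Figure D2:**
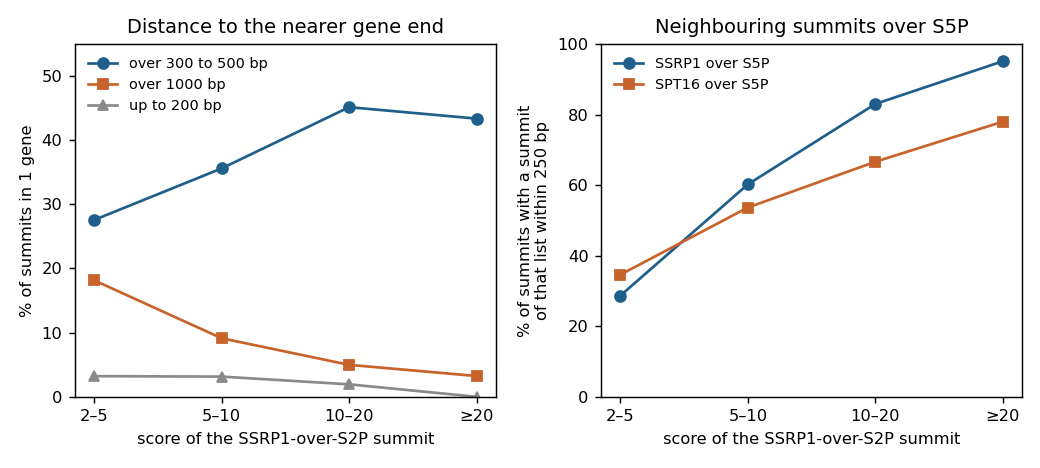
Summits of SSRP1 over S2P in 4 classes of score (horizontal axes). Left, the percentage over 300 to 500 bp, over 1000 bp and up to 200 bp from the nearer gene end. Right, the percentage with a summit of SSRP1 over S5P or of SPT16 over S5P within 250 bp, which is 95.1% and 78.0% at scores of at least 20 and 28.7% and 34.6% under 5.

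The distance stayed nearly constant in base pairs and did not scale with the gene. For the strongest summit of each gene the median distance was 436.5 bp in genes of over 1000 to 1500 bp, 504 bp in genes of over 2000 to 3000 bp, 519 bp in genes of over 3000 to 4000 bp and 463 bp in genes longer than 6000 bp. As a part of gene length the same distances were 0.355, 0.208, 0.152 and 0.0644, where 0.5 is the centre. In short genes the band reaches the centre: the median was 310 bp, or 0.389 of the length, in genes of over 500 to 1000 bp. Short genes also held summits least often. Only 2.01% of genes of up to 500 bp and 10.3% of those of over 500 to 1000 bp had one, against 18.5% to 20.3% in the 4 classes between 1000 and 4000 bp and 14.0% above 6000 bp.

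**Figure D3:**
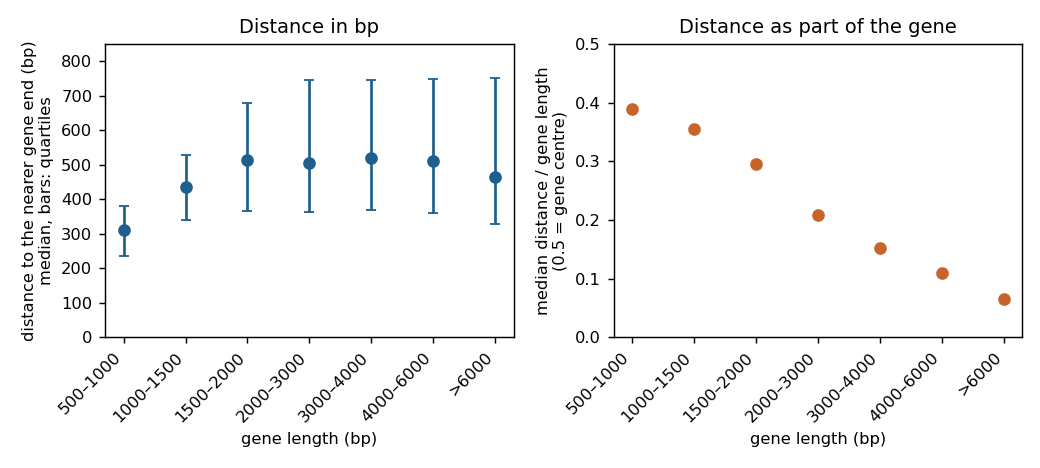
Distance of the strongest SSRP1-over-S2P summit to the nearer gene end in 7 classes of gene length, in bp (left, median with quartiles) and as a part of gene length (right, median; 0.5 is the gene centre). From 1500 bp upwards the median stays between 463 and 519 bp while the part of the gene goes down to 0.0644.

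Which of the 2 gene ends the band faces was read from another list, since the gene table has no strand. This reading covers 662 of the 4771 genes with a summit, and the others were not oriented. SPT5 over S5P, which shares no library with SSRP1 over S2P, has 78.2% of its summits in genes within 200 bp of an end. Each summit of that list was credited only to the nearest protein-coding gene end, if within 200 bp. Ends so credited are called marked. Of the protein-coding genes, 2510 had exactly 1 marked end, and 19 had both ends marked. An unmarked end can still lie within 200 bp of a summit credited to an end of another gene. In the 662 of them that were at least 1000 bp long and held an SSRP1-over-S2P summit, the strongest SSRP1 summit lay nearer to the other end in 624 (94.3%, 92.2 to 95.9). It lay a median of 452 bp from that other end, with quartiles of 325 and 660 bp, and 1980 bp from the SPT5-marked end. The share was 86.4% in genes of 1000 to 2000 bp (178 of 206), 96.2% at 2000 to 3000 bp (228 of 237), 100% at 3000 to 4000 bp (132 of 132) and 98.9% in longer genes (86 of 87), with median distances from the other end between 398 and 513 bp. Whether transcription starts or stops at the SPT5-marked end was not analysed here.

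**Figure D4:**
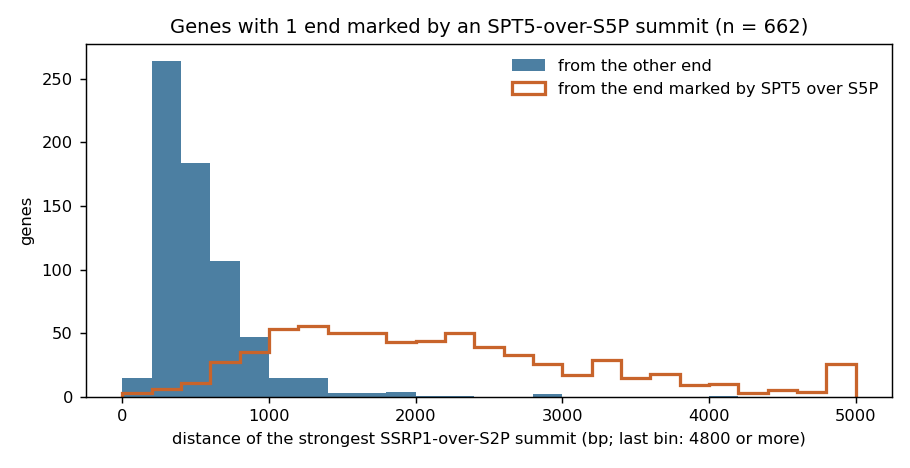
Distance of the strongest SSRP1-over-S2P summit from the unmarked (filled) and the SPT5-marked (outline) gene end, in 662 genes with exactly 1 marked end, in bins of 200 bp. A marked end is the gene end nearest to an SPT5-over-S5P summit, within 200 bp of it. Distances from the other end cluster around the median of 452 bp, and those from the marked end spread with gene length around 1980 bp.

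The exceptions to this pattern included some of the highest scores. The summit lay nearer to the SPT5-marked end in LCR69 (478 bp from that end, 529 bp from the other), AT4G14270 (503 and 736 bp), the cold-induced gene KIN2 (399 and 625 bp) and RCI2A (611 and 816 bp), which encodes a small membrane protein induced by cold. These are genes of 1008 to 1428 bp, in which neither distance exceeds 816 bp. In AT5G66650, of 4010 bp, the summit lay 1049 bp from the marked end and 2960 bp from the other.

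At the level of genes, 4771 of 27444 protein-coding genes (17.4%) held at least 1 summit. A score of at least 5 was reached in 3415 (12.4%), of at least 10 in 1554 (5.66%) and of at least 20 in 319 (1.16%). The median of the strongest scores was 7.19. Most genes, 4272, held a single summit, and 499 held more: 449 genes held 2, 41 held 3, 7 held 4, and 1 gene each held 5 and 6. Of the genes with 2 summits, 239 had one on each side of the gene centre and 210 had both on the same side. Neighbouring summits within a gene were a median of 769 bp apart, with quartiles of 568 and 1224 bp.

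In all, 9 genes held 4 or more summits. SEX1, which encodes the glucan, water dikinase of starch breakdown, held 6 summits with scores of 4.4 to 8.1 along 10099 bp. AT2G31810 held 5, scoring 2.3 to 9.6 over 4665 bp. Those with 4 were LACS1 (an acyl-CoA synthetase of wax and cutin formation), FUM2 (the cytosolic fumarase), ACO1 (an aconitase), PYK10 (the beta-glucosidase of ER bodies), BGAL2 (a beta-galactosidase), RPP4 (an immune receptor) and AT4G28080, whose strongest summit scored 15.8. In FUM2 the summit nearest to an end, at 809 bp, scored 14.6 and the other 3 scored 3.4 to 3.6. In ACO1 the scores were 13.4 at 931 bp, 8.6 at 1859 bp, 3.6 at 2159 bp and 2.6 at 2732 bp from the nearer end, while in PYK10 all 4 scored 2.7 to 3.0. The strongest summit was not always the outermost: in SEX1 the scores were 8.1 at 4111 bp and 8.0 at 3719 bp, against 5.7 at 616 bp.

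The strongest summits fell in genes of quite different kinds, and several of them were not shared by all elongation factors. In AT3G61028 the summit (chromosome 3, position 22582379, TAIR10, 906 bp from the nearer end) scored 62.5, and its other scores were 62.1 for SSRP1 over S5P, 27.8 for SPT16 over S2P and 25.5 for SPT16 over S5P, with no ELF7 summit. The clock-controlled RNA-binding protein gene GRP7 scored 56.4 at 724 bp, close to the centre of its 1474 bp. Within 250 bp of that summit the scores were 33.4 for SSRP1 over S5P and 49.8 for SPT16 over S2P. The highest ELF7-over-S2P summit of the gene, at 52.2, lay further away. The defensin-like gene LCR69 scored 55.3 at 478 bp, with 23.1 for SSRP1 over S5P and 38.8 for SPT16 over S2P within 250 bp. Its highest ELF7-over-S2P summit, at 35.2, also lay further away. AT2G31590 scored 52.6 at 283 bp, with 60.7 for SSRP1 over S5P, 53.8 for SPT16 over S2P, 61.5 for SPT16 over S5P, and no ELF7 or SPT5 summit. Scores in different lists depend on each list's own libraries and control, and lists over S2P are read as sharing the 2 S2P libraries.

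Of the next genes, AT1G04000 scored 49.2 at 507 bp. TCP11 (AT5G08330), whose product is also known as the clock protein CHE, scored 44.3 at 587 bp, against 13.6 for SSRP1 over S5P within 250 bp. The highest SPT16-over-S2P summit of the gene, at 17.1, lay further away. The plastid envelope protein gene OEP6 scored 43.1 at 285 bp in a gene of 636 bp. BME3, a GATA zinc finger gene of seed germination, scored 41.5 at 400 bp, and AT5G50450 40.6 at 363 bp. CP29, a chloroplast RNA-binding protein gene, scored 40.2 at 802 bp. Its highest SPT16-over-S2P summit, at 51.2, lay more than 250 bp away.

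Among the remaining genes of the 25 highest were further stress and growth genes. ADS2, an acyl-lipid desaturase gene of cold tolerance, scored 39.9 and lay deep in its gene, 1049 bp from the nearer end. NAC062, a membrane-bound NAC transcription factor gene, scored 37.8 at 304 bp, and ERD6, a sugar transporter gene induced by dehydration, 37.8 at 458 bp. XTH9, for a xyloglucan-modifying enzyme of the cell wall, scored 37.7 at 795 bp, against 51.4 for ELF7 over S2P. LGT8, a glycosyltransferase gene, scored 36.6 at 321 bp, GSTF10, a glutathione transferase gene, 36.2 at 490 bp, and ORA47, an AP2/ERF factor gene of jasmonate responses, 36.0 at 503 bp. AT3G22550, AT5G11550, AT4G14270, AT4G33960, AT1G62520, AT3G49720, AT3G49220 and AT5G46710 made up the rest of the 25, with scores of 35.1 to 40.0.

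Summits at unusual distances were led by other genes. Within 100 bp of an end the highest score, 30.6, belonged to a single summit in the overlap of GTE2, a bromodomain protein gene, and the neighbouring AT5G10540, 20 bp from an end of GTE2 and 78 bp from one of AT5G10540. The other 3 of the 5 highest there, AT4G33310 (17.8), AT5G04475 (16.4) and AT4G09035 (15.3), are genes of 261 to 338 bp, in which no base is far from an end. At 100 to 300 bp the highest scores were those of AT2G31590, OEP6, AT4G33960 (36.5 at 204 bp), AT3G49720 (35.6 at 292 bp) and EMF1 (33.5 at 277 bp), a Polycomb-associated repressor of flowering. At over 1000 bp they were AT3G22550 (40.0 at 1079 bp), ADS2, AT1G78040 (34.1 at 1066 bp), the immune receptor gene ADR1-L1 (30.7 at 2706 bp of 6071 bp) and AT5G43020 (30.2 at 1188 bp). The genes with their strongest summit beyond 1000 bp, 285 of them, had a median length of 3185 bp and a median score of 5.99, against 7.90 for the 1854 genes at over 300 to 500 bp.

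Functions were described with 28 lists holding 807 genes. For each, the share of genes with a summit is given beside the 17.4% of all protein-coding genes, which count every annotated gene, transcribed in seedlings or not, and the median strongest score beside 7.19 and the median distance beside 468 bp. Genes of a family are not replicates, no list was tested, and near-identical copies (histones, tubulins, LHCB1 genes, RBCS genes) can share reads. How the authors treated such reads is not given here. In 24 of the 28 lists the share was above 17.4%.

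**Figure D5:**
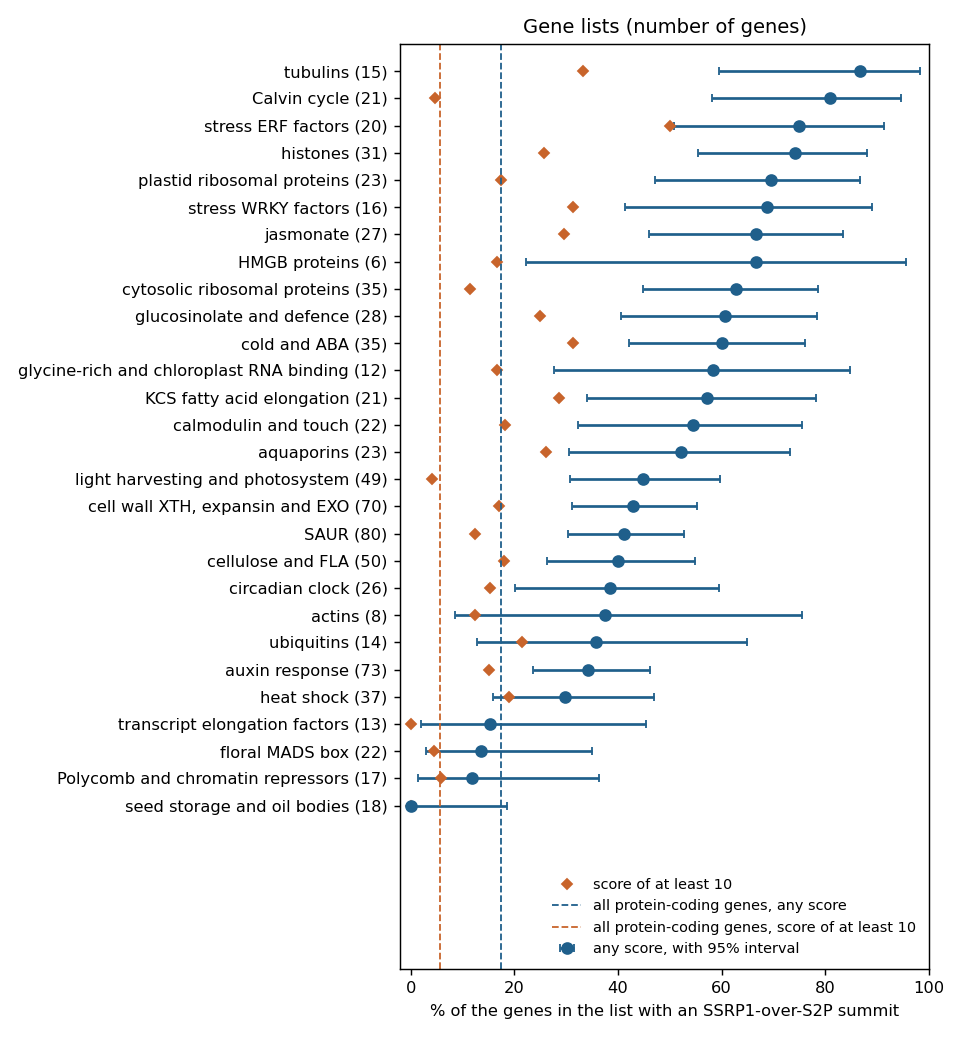
Percentage of the genes in each list with an SSRP1-over-S2P summit, with exact 95% intervals (circles), and with a summit of score at least 10 (diamonds); the number of genes is in brackets. Dashed lines are all protein-coding genes, 17.4% and 5.66%. Tubulin genes are highest at any score and stress ERF genes at scores of at least 10, while Calvin cycle and photosystem genes are high at any score and just under the line at scores of at least 10.

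Histone and tubulin genes were among the lists with the highest shares. Of 31 histone genes, 23 held a summit (74.2%, 55.4 to 88.1), with a median score of 8.64 and a median distance of 304 bp in genes with a median length of 936 bp. The highest were HIS4 (19.3), the only H4 gene in the list, the H2B gene HTB11 (15.0) and the H2A genes HTA13 (14.7) and HTA10 (13.0). Other H4 genes were not looked at. The 8 without a summit were HTR12 (the centromeric H3), MGH3 (an H3 of the male germ line), HTR11, the H3 gene AT5G10390 and the H2A family genes HTA4, HTA8, HTA11 and HTA12. Among H2A.Z genes, HTA8 and HTA11 had none and HTA9 scored 2.64 at 288 bp. Of the HMGB genes, whose products bend DNA, HMGB3 (13.6), HMGB4 (8.65), HMGB1 (8.37) and HMGB2 (3.79) held one, and HMGB5 and HMGB6 did not. Tubulin genes held one in 13 of 15 cases (86.7%, 59.5 to 98.3), led by TUB8 (22.2), TUA6 (20.9), TUB5 (19.0) and TUA3 (15.1). TUA1 and TUB1 had none. Of 8 actin genes 3 held a summit (37.5%, 8.52 to 75.5). ACT7 (11.8), ACT2 (9.13) and ACT8 (6.30), which are the vegetative actins, did, and the reproductive ACT1, ACT3, ACT4, ACT11 and ACT12 did not. Of 14 ubiquitin genes 5 did (35.7%, 12.8 to 64.9), with UBQ3 at 22.7, UBQ5 at 15.5, UBQ1 at 13.6 and UBQ6 at 9.12.

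Transcript elongation factor and repressor genes had shares near that of all genes. Among 13 transcript elongation factor genes, TFIIS scored 7.71 at 323 bp and SPT16 itself 5.87 at 202 bp. HMG, the SSRP1 gene, had no summit, and neither had GTA2 (an SPT5 gene), SPT42, ELF7, ELF8, VIP3, VIP4, VIP5, PHP, IWS1 or IYO. That is 15.4% (1.92 to 45.4), close to 17.4%. Of 17 genes for Polycomb and other chromatin repressors, 2 held one (11.8%, 1.46 to 36.4, an interval that includes 17.4%), EMF1 at 33.5 and VRN5 at 4.07. EMF1 was the only member of that list above a score of 5.

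The listed ribosomal protein genes of the cytosol and the plastid were marked about as often, but at different distances. Ribosomal protein genes not matched by the names used are missing from these lists, so the distances hold for the listed genes only. Of 35 cytosolic genes 22 held a summit (62.9%, 44.9 to 78.5) and of 23 plastid genes 16 (69.6%, 47.1 to 86.8), with median scores of 6.47 and 7.59. The median distance was 576 bp for the cytosolic and 293 bp for the plastid genes, in genes with median lengths of 1758.5 and 1514.5 bp. More than 500 bp from an end lay 15 of 22 cytosolic and 2 of 16 plastid strongest summits, against 2134 of 4771 genes in all (44.7%). The highest cytosolic scores were P40 (11.5 at 210 bp), RPL34 (10.5 at 308 bp), STV1 (10.2 at 191 bp) and RPL27AB (10.0 at 381 bp), and among the highest plastid ones were PSRP3/1 (18.1 at 435 bp), RPL21C (14.6 at 257 bp) and RPL12-A (12.7 at 538 bp).

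Photosynthesis genes were marked often but weakly, and the light-harvesting genes hardly at all. Of 49 genes for light harvesting and photosystems 22 held a summit (44.9%, 30.7 to 59.8), with a median score of 3.65, and 2 of them scored at least 10. These were NPQ4 (13.8), the gene of the photoprotective protein PsbS, and the plastocyanin gene PETE1 (10.1), followed by PSAL (9.21) and PSAE-2 (9.12). At scores of at least 10 the share was 4.08%, against 5.66% of all genes. Split after these values were seen, the list fell into 19 genes of LHC proteins, of which only LHCB4.1 held a summit, at 2.04, and 30 others, of which 21 (70.0%) did. None of the 19 LHC genes had a summit in the SSRP1 list over S5P. Genes of the Calvin cycle held one in 17 of 21 cases (81.0%, 58.1 to 94.6), again with a low median score of 4.19, and at scores of at least 10 the share was 4.76%, also below 5.66%. CP12-3 scored 10.3, GAPA 9.41, CP12-1 8.98 and HCEF1, a fructose bisphosphatase gene, 8.93. RBCS1A, RCA, TIM and CP12-2 had none. Because a summit requires SSRP1 to exceed S2P, these counts do not measure SSRP1 on the genes.

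Early stress and hormone response genes reached high scores. Of 20 stress ERF transcription factor genes 15 held a summit (75.0%, 50.9 to 91.3) and 10 scored at least 10, that is 50.0% against 5.66% of all genes, and their median score of 18.4 was the highest of the lists with more than 2 such genes. ERF6 scored 32.2 at 608 bp, ERF2 31.4 at 536 bp, AT5G51190 29.2 at 451 bp and ERF3 23.8 at 578 bp. These are short genes, with a median of 1314 bp, and 10 of the 15 summits lay over 300 to 500 bp from an end. WRKY factor genes held one in 11 of 16 cases (68.8%, 41.3 to 89.0), led by WRKY22 (17.3), WRKY11 (13.9), WRKY40 (13.6) and WRKY6 (11.5). Jasmonate genes did in 18 of 27 (66.7%, 46.0 to 83.5), with a median score of 9.59. AOS, for allene oxide synthase, scored 27.0, the master regulator MYC2 21.0, the repressor gene TIFY7 19.4 and the lipoxygenase gene LOX3 16.1, while the receptor gene COI1 had none. Of the 12 JAZ repressor genes 5 held a summit, a subset named after its values were seen.

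Among calcium, cold and heat genes the shares ran between 29.7% and 60.0%. Of 22 calmodulin and touch genes 12 held a summit (54.5%, 32.2 to 75.6), with CAM3 at 20.3, CML23 at 19.5, CML38 at 17.1 and TCH2 at 12.8. Cold and abscisic acid response genes did in 21 of 35 cases (60.0%, 42.1 to 76.1), led by ADS2 (39.9), KIN2 (31.8), the dehydration-induced ERD4 (19.4) and OEP16-1 (19.4). Heat shock genes did in 11 of 37 (29.7%, 15.9 to 47.0). The constitutive chaperone genes HSP81-3 (23.3), HSC70-1 (18.5) and HSP81-2 (15.4) and the factor gene DREB2A (18.2) were highest, followed by HSFB2A (12.6), HSF4 (12.3), MBF1C (10.7), AT-HSFB2B (9.60), BIP1 (7.17), HSFA7A (5.39) and BIP2 (4.37). Heat-induced genes stood on both sides: MBF1C and HSFA7A were among those with a summit, and HSP101, HSFA2, HSP70, HSP90.1 and APX2 among those without. No summit lay in the constitutive Hsp81.4 either. None lay in the 8 small heat shock protein genes. These genes were picked out of the list after their values were seen, and 8 genes without a summit still allow a share of up to 37.5%.

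Clock genes were marked in 10 of 26 cases (38.5%, 20.2 to 59.4), and the median score was 8.69. GRP7 (56.4) and TCP11 (44.3) stood far above GI (12.3 at 310 bp of 6040 bp) and CDF3 (11.9). Core clock genes stood on both sides. TOC1 (9.36), PRR7 (6.74), ZTL (6.47), PCL1 (5.65) and PRR9 (5.19) held a summit, and CCA1, LHY, ELF3, ELF4, PRR5 and PRR3 had none. In the list of glycine-rich and chloroplast RNA-binding proteins 7 of 12 genes held a summit (58.3%, 27.7 to 84.8), with GRP7 and CP29 (40.2) ahead of CCR1 (8.03) and PSRP2 (6.62).

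In several lists most of the strongest summits lay beyond 500 bp, against 44.7% over all genes. Such lists included Calvin cycle genes (12 of 17) and glycine-rich and chloroplast RNA-binding protein genes (6 of 7) as well as genes of the cell wall, waxes and water transport. Of 70 genes for XTH enzymes, expansins and EXO proteins 30 held a summit (42.9%, 31.1 to 55.3), and 20 of the 30 lay more than 500 bp from an end. XTH9 (37.7), XTH4 (31.6), EXL3 (29.4) and EXL5 (25.2) were highest. Cellulose synthase and fasciclin-like genes held one in 20 of 50 cases (40.0%, 26.4 to 54.8), of which 17 lay beyond 500 bp, with FLA17 at 30.7, FLA18 at 23.8, SOS5 at 17.8 and FLA8 at 17.6. KCS genes, which elongate fatty acids of waxes, did in 12 of 21 (57.1%, 34.0 to 78.2), of which 11 lay beyond 500 bp. KCS8 scored 32.6 at 536 bp, KCS20 16.7 at 1046 bp, KCS16 16.2 at 687 bp and KCS3 14.0 at 647 bp. Aquaporin genes did in 12 of 23 (52.2%, 30.6 to 73.2), of which 10 lay beyond 500 bp, led by PIP3 (21.6), PIP1;5 (17.1), GAMMA-TIP (17.0) and PIP1;4 (14.9). For comparison, the median over all genes of 1500 to 2000 bp was 514 bp, and these lists had median distances of 660.5, 778.5, 814.5 and 668.5 bp in genes with median lengths of 1847, 3022, 2190 and 1853.5 bp.

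Auxin genes were described in a pair of lists. Among Aux/IAA, ARF, GH3 and transporter genes 25 of 73 held a summit (34.2%, 23.5 to 46.3), with PIN7 (28.5), IAA7 (21.7), PIN4 (21.5) and AUX1 (21.2) highest, and 17 of the 25 lay beyond 500 bp. SAUR genes, short early auxin genes, did in 33 of 80 (41.2%, 30.4 to 52.8), at a median of 354 bp, and 4 of the 33 lay beyond 500 bp. Of these 33 genes 23 were shorter than 1000 bp and cannot hold a summit that far from both ends, so the distances of the 2 lists cannot be compared. AT4G34760 (30.7), SAUR23 (18.8), AT1G75580 (18.2) and AT3G12830 (16.6) were highest. Glucosinolate and defence genes did in 17 of 28 (60.7%, 40.6 to 78.5), of which 15 lay beyond 500 bp, with MYB34 at 22.0, PAD4 at 17.7, SUR1 at 16.3 and MYB28 at 15.0.

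For lists of genes typical of seeds and flowers, the intervals include the share of all genes. None of 18 seed storage and oil body genes held a summit. That allows a share of up to 16.7% by the limit of 3 counts and of up to 18.5% by the exact interval, beside the 17.4% of all genes. Of 22 floral MADS box genes 3 did (13.6%, 2.91 to 34.9). These were SVP (18.8) and AGL20 (9.43), which control flowering time, and the floral identity gene AP1 (6.99 at 64 bp from a gene end). The labelled tissue could not be checked from these counts, since the summit list gives no expression.

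Outside protein-coding genes lay 214 summits (3.93%, 3.43 to 4.48), of which 75 scored at least 10. Of these, 107 fell on other annotated genes and 107 lay in no annotated gene. Small nucleolar RNA genes held 25 of them, lncRNA genes 27, genes annotated as ncRNA 25, pseudogenes 12 and transcribed pseudogenes 13, genes annotated as misc_RNA 9, miRNA genes 7 and a tRNA gene 1, where a summit in overlapping genes counts in each class. The median distance to the nearest protein-coding gene end was 787 bp, and 78 lay within 500 bp. Among miRNA genes, MIR167d scored 20.2, MIR159a 16.5, MIR8176 14.8, MIR4228 14.3 and MIR156a 9.82. The summit in MIR8176 also lies in a small nucleolar RNA gene.

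The highest summit of the whole list was one of these. At chromosome 3, position 22513641 (TAIR10), it scored 63.8, lay in no annotated gene and 397 bp from an end of AT3G60920, and had a summit of SSRP1 over S5P with a score of 54.2 within 250 bp. None of the 6 lists for SPT16, ELF7 and SPT5 had a summit within 250 bp of it. The summit at chromosome 1, position 1873852, scored 52.2 and lay 122 bp from an end of EMB1444, with 54.8 for SSRP1 over S5P and 14.4 for SPT16 over S2P nearby. At chromosome 2, position 4142303, a score of 32.0 stood 3195 bp from the nearest protein-coding gene end, and at position 19176316 of the same chromosome 31.4 stood 4389 bp from it. The transcribed pseudogene AT4G21437 scored 28.0, with 29.8 for SSRP1 over S5P.

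SSRP1 over S5P is read as using the same 4 SSRP1 libraries with another control, so that shared positions are partly built in. Within 250 bp of one of its 4199 summits lay 57.1% of the S2P summits (55.8 to 58.4), and 42.2% had one at the same base. Seen from the S5P list, 74.4% of its summits lay within 250 bp of an S2P summit. The share depended on the score: 95.1% of S2P summits scoring at least 20, 83.0% at 10 to 20, 60.2% at 5 to 10 and 28.7% under 5 had an S5P counterpart. By place it was highest, 67.0%, at 400 to 500 bp from a gene end and lowest, 31.1%, at 1500 to 2000 bp. The median score was 8.31 and 4.08 at these distances, and place was not examined apart from score. The strongest summits stayed over both forms, with all of the 25 highest having an S5P counterpart, but scores differed. GSTF10 scored 36.2 over S2P and 6.92 over S5P, NAC062 37.8 and 10.1, and CP29 40.2 and 41.1.

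SPT16 over S5P shares no ChIP library with SSRP1 over S2P. Within 250 bp of one of its 7394 summits lay 51.8% of SSRP1-over-S2P summits (50.5 to 53.1), and 38.5% of its own summits lay that near to an SSRP1-over-S2P summit. By score the share of SSRP1 summits was 78.0% at 20 or more, 66.6% at 10 to 20, 53.6% at 5 to 10 and 34.6% under 5. Only 13 summits stood at the same base. Of all protein-coding genes, 17.3% held an SPT16-over-S5P summit. The share of other positions in the same genes that lie so near to one was not computed, here or for SSRP1 over S5P. How far 51.8%, or its rise with score, exceeds such a general share is therefore not known. Among summits in exactly 1 gene, 35.6% of 5142 SSRP1-over-S2P and 27.2% of 5841 SPT16-over-S5P summits lay 300 to 500 bp from the nearer end. Within 200 bp of an end lay 2.70% and 18.8%. Density per base was not computed for SPT16 over S5P. Of the 25 highest SSRP1-over-S2P summits, 21 had an SPT16-over-S5P summit within 250 bp, 6 an ELF7-over-S5P and 4 an SPT5-over-S5P summit. These lists differ in size, with 7394, 693 and 2916 summits. In the lists over S2P, 20 had an SPT16, 11 an ELF7 and 11 an SPT5 summit that near, from 6578, 2687 and 298 summits. Shares over all SSRP1-over-S2P summits were not computed for ELF7 and SPT5, so these counts do not rank the factors.

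Set beside the other lists over S2P, which are read as sharing its 2 S2P libraries, SSRP1 summits had a lower median distance to gene ends than those of SPT16 and ELF7 and a higher one than those of SPT5. Its median distance of 501 bp compares with 560 bp for SPT16, 792 bp for ELF7 and 483 bp for the 224 SPT5 summits in 1 gene, and 10.9% of SSRP1 summits lay beyond 1000 bp, against 18.2% for SPT16, 28.1% for ELF7 and 4.91% for SPT5. Within 200 bp of an end lay 2.70% of SSRP1, 3.47% of SPT16, 1.57% of ELF7 and 11.6% of SPT5 summits in 1 gene. SSRP1 over S5P had a median of 456 bp. These are values of single lists without replicate error, and no difference between them was tested.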

How the data were processed

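Per the labels' protocols, chromatin of crosslinked seedlings was sheared, precipitated and sequenced. The tools were MACS3, Bowtie2, deepTools, Trimmomatic 0.39 and SAMtools 1.16.1, and the genome TAIR10, per the submitters' processing notes. No source used here gives settings or the pooling of libraries. The lists deposited by the authors give each summit a −log10 score. Here, positions (counted from 1) were matched to 27444 protein-coding genes by the gene ends in the RefSeq table of TAIR10.1, which are not printed (Python 3.11.15, pandas 2.3.3, SciPy 1.17.1). Assignment and distances were checked on simulated summits. A summit in overlapping genes counted for each, except in distances over all summits, which used summits in 1 gene.

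The summits and gene lists were chosen with earlier results of these data known. Lists were matched by symbol, synonym or locus (12 names had no single match), and wrong matches were removed by annotation. A homeobox list was not used, because names did not separate its family. Named genes are the 25 highest, the 5 highest per distance class, those with the most summits, the 5 highest outside genes, the 4 highest per list and elongation factor genes; 1 gene that the rule names is not reported here. Other list members, with or without a summit, were named after their values were seen. Counting error is the only precision given.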

Additional observations from a re-analysis of the deposited data

How the results depend on the processing

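No paired analysis was possible because the lists have no column per replicate, and for the same reason no replicate could be left out. With a score minimum of 5 or of 10, the share of summits inside protein-coding genes was 95.4% or 95.3%, against 96.1% as deposited. The share near a gene end was 50.9% within 500 bp, 16.2% within 300 bp and 88.7% within 1000 bp, and 55.1% and 57.5% within 500 bp with a minimum of 5 and of 10. The median distance of 501 bp became 468 bp for the strongest summit per gene, 560 bp in genes of at least 2000 bp, and 472 and 465 bp with a minimum of 5 and of 10. The median score at 300 to 500 bp was 7.67 and 7.31 in genes of at least 2000 bp, and that beyond 1000 bp was 4.67 and 5.99 for the strongest summit per gene. Genes with a summit numbered 4771, and 1554 at scores of at least 10. Summits with an SSRP1-over-S5P summit within 250 bp made up 57.1%, within 500 bp 60.3%, at the same base 42.2%, and at scores of at least 5 in both lists 45.6%. With SPT16 over S5P, chosen after the data were seen, the share was 51.8%, and 61.6% within 500 bp, 36.9% within 100 bp, 0.238% at the same base and 39.4% at scores of at least 5. Nearer to the end not marked by SPT5 over S5P lay 94.3%, and 97.8% in genes of at least 2000 bp, also chosen after the data were seen. The number of gene lists above the share of all genes was 23 to 26 of 28 under the alternatives, and some lists changed side. At scores of at least 5, elongation factor (15.4%) and floral MADS box genes (13.6%) stood above the 12.4% of all genes. At scores of at least 10, photosystem (4.08%) and Calvin cycle genes (4.76%) fell below 5.66%, and Polycomb genes (5.88%) stood above it. At scores of at least 10, 22 lists left their intervals, with 5.66% of all genes as background. For changes that come with fewer genes or summits by construction no other cause was tested. The planned comparison with SPT16 over S2P was not run as an overlap, since both lists use the S2P libraries. Depth is unknown and limits how far the absence of a summit can be read.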
